A study of Arabidopsis thaliana with 204 samples.

Results

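In Arabidopsis thaliana (Col-0), 185 genes were enriched in the adaxial (upper) side of the proximal petiole under white light (WL). They were chosen by their counts in WL at 60 to 300 min: at least 10 normalized reads on average over the petiole samples and a mean adaxial minus mean abaxial difference of at least 1.3 on the log2(normalized count + 1) scale. The whole table held 33602 loci, of which 15824 passed the same mean count and 113 showed a difference of the same size towards the abaxial (lower) side. The samples came from 28-day-old plants grown in a photoperiod of 9 h light and 15 h darkness, and each sample pooled tissue of 13 leaves. The FRtip treatment added far-red (FR) light to the tip of the leaf alone, where the R/FR was 0.05, against 2.0 in WL, and in both treatments the leaf tip and the adaxial and abaxial sides of the petiole were sequenced apart. Each tissue, treatment and time point had 4 replicates, apart from 40 min, when the WL leaf tip had 3 and each petiole side 1 or 2. Each normalized read count is the number of reads on a gene divided by the size factor of its sample, and it is not corrected for gene length. No source states that the replicates came from separate sowings, so that p-values measure the spread between these pools of leaves.

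Leaf polarity is set up early by opposing regulators. HD-ZIP III factors and the AS1 and AS2 proteins specify the upper side, while KANADI and YABBY factors specify the lower side. In the blade, the upper side forms palisade mesophyll rich in chloroplasts and the lower side spongy mesophyll, and stomata form in the epidermis of both sides. A low R/FR inactivates phytochrome B and releases PHYTOCHROME INTERACTING FACTORs (PIFs), and when only the leaf tip senses it, auxin from the tip moves to the petiole base, where the lower side elongates and the leaf rises (hyponasty).

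The 182 members found in RefSeq lay on chromosomes 1 to 5, with 55 on chromosome 1 and 42 on chromosome 5, and 7 pairs of them were neighbours. The other 3 were chloroplast loci (ATCG00120, ATCG00490 and ATCG00700) and are named by ID only. The upstream sequences of 2 such pairs, taken from the RefSeq annotation of TAIR10.1, are shown because both genes of each pair were members. The windows are the 250 bases before the annotated gene start, written 5′ to 3′ on the minus strand, which is the gene strand of all 4. Capitals mark GATAAG (an I-box, known from promoters of light-regulated genes) and CACGTG (a G-box, which PIFs and other bHLH and bZIP factors bind) on either strand, where GATAAG on the other strand reads CTTATC.
RBCS2B (chr5:15382072-15382321): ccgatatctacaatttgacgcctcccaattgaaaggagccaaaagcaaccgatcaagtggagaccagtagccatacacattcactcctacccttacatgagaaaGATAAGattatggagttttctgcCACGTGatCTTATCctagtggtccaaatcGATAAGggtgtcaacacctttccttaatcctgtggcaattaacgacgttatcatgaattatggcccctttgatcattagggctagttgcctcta
RBCS1B (chr5:15385321-15385570): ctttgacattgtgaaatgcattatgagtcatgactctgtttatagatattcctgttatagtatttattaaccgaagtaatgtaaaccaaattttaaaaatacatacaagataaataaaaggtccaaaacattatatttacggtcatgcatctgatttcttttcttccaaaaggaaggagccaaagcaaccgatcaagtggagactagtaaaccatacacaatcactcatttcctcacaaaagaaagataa
FRO6 (chr5:20204596-20204845): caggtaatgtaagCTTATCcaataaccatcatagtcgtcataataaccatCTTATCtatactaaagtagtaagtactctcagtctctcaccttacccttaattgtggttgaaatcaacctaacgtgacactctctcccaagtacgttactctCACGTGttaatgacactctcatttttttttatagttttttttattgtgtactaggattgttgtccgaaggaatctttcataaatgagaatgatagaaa
FRO7 (chr5:20208778-20209027): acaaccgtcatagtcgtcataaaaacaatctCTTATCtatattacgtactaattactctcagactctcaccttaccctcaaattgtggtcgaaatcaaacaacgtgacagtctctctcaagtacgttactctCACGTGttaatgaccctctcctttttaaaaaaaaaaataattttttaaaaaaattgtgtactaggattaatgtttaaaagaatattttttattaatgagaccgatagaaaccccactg
RBCS2B held 3 GATAAG and 1 CACGTG in this window and RBCS1B held neither, although both encode the small subunit of Rubisco. FRO6 held 2 GATAAG and 1 CACGTG, and FRO7 held 1 of each. The longest run shared by the FRO6 and FRO7 windows was 29 bases, and that of the RBCS2B and RBCS1B windows 23 bases. Over 181 members with a window, 16% held GATAAG and 8.29% held CACGTG, beside 12.4% and 7.32% of the windows of all 19481 genes tested that had one. Both motifs stood in 5 members (AT3G28220, AT5G27890, FRO6, FRO7 and RBCS2B), or 2.76%, beside 1.06% of all windows. TTGACC, the W-box core bound by WRKY factors, was in 6.08% of member windows and 12% of all windows. These shares are a description of letters in a short window.

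A microRNA gene, MIR167d (AT1G31173), was also a member and is named here after its values were seen. Its mature sequence is shown with the seed (bases 2 to 8) in capitals, from the plus strand at chr1:11137556-11137577 in RefSeq TAIR10.1. The miR167 family targets transcripts of the auxin response factors ARF6 and ARF8.
miR167d: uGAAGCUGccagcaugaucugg
The table counts reads on the gene, so it measures the precursor transcript and not the mature miRNA. MIR167d counts had a lowest, median and highest value of 18, 40.7 and 85.6 in the 32 adaxial FRtip samples, against 1.1, 6.97 and 20.4 in the 32 abaxial FRtip samples. In FRtip, where the samples had no part in the choice, its adaxial minus abaxial log2 fold change (log2FC) was 2.36 ± 0.18 (SE; limma, adjusted p = 2.9e-18). Its leaf tip counts in FRtip were higher still, with 174, 327 and 425.

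Depth ran from 805840 to 5538648 reads on genes per sample, with a median of 2304846, over the 199 samples of the tests. Tissue labels were checked against marker genes in the FRtip samples. The summed count of 10 abaxial identity markers (KANADI, YABBY and ARF genes) had a median of 542 in adaxial and 927 in abaxial samples, with ranges of 455 to 607 and 697 to 1060. The 11 adaxial identity markers summed to a median of 854 in adaxial samples (708 to 964) and 740 in abaxial samples (496 to 906), so that these ranges overlapped. The 10 guard cell markers summed to 242 in adaxial samples (189 to 310) and 94.7 in abaxial samples (48.3 to 150). Of these 10, 3 are members (FMA, MYB60 and TMM), and so is 1 adaxial identity marker (AS2). The sums of both lists are therefore not separate from the choice of genes. The 50 photosynthesis markers summed to 159682 in adaxial samples (122201 to 200491) and 85685 in abaxial samples (63296 to 145735). In bulk tissue, a larger share of cells of a type and more RNA per cell cannot be told apart, and this holds for every gene below.

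The mean log2(normalized count + 1) over the 185 genes was used as a level per sample. In FRtip it was 6.39 ± 0.12 in the leaf tip, 5.80 ± 0.19 in the adaxial petiole and 3.81 ± 0.47 in the abaxial petiole, and in WL it was 6.54 ± 0.13, 5.86 ± 0.13 and 3.79 ± 0.36 in the same order of tissues (SD, n = 32 each). The abaxial samples varied most, from 3.05 to 4.99 in FRtip. The 4 abaxial FRtip samples with the highest levels (4.54 to 4.99) had photosynthesis marker sums of 109997 to 145735, above the median of 85685, and the sample of replicate 1 at 60 min was the highest in both. Adaxial identity sums of these 4 were 597 to 818 (median 740), guard cell sums 91.6 to 126 (94.7) and xylem marker sums 267 to 706 (481). Replicate 4 at 60 min lay below each of these medians. In FRtip, replicate 3 at 80 min had a photosynthesis sum of 109747 at a level of 3.89. The 4 samples at 300 min had 63296 to 76459. The abaxial level averaged 4.02 and 3.97 in replicates 1 and 2, and 3.60 in both replicates 3 and 4 (n = 16 each). Of the 50 photosynthesis markers 5 are members, so the marker sums and the levels share some of their values. The part of the photosynthesis markers in these levels was not tested.

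**Figure D1:**
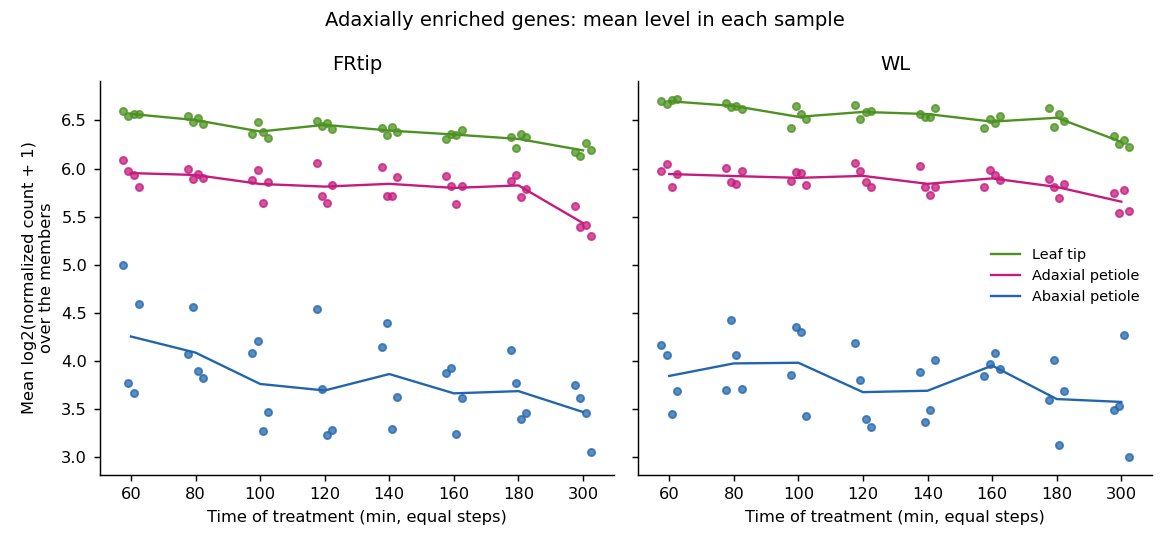
Mean log2(normalized count + 1) over the 185 genes in each sample (points) and its mean (lines), by time of treatment in min, in FRtip (left) and WL (right). Leaf tip samples lie above adaxial samples, and abaxial samples lie lowest with the widest spread, from 3.05 to 4.99 in FRtip.

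The WL side difference was used to choose the genes and is given without a test. It had a median of 1.96 over the members, was at least 2 in 90 of them and at least 3 in 21, and reached 4.55 in AT1G13650. Just inside the threshold lay AT1G10657 (1.309), NdhM (1.303) and AT2G36145 (1.301), and just outside it AT1G22890 (1.299), AT1G62780 (1.298) and UGT75B1 (1.297). In the FRtip samples, which the rule did not use, 184 of the 185 genes were higher adaxially at an adjusted p below 0.05 (limma) and 0 were lower, also by the quasi-likelihood test of edgeR. Among all 19964 genes tested, 32.7% were higher adaxially and 31.5% lower. The median log2FC was 1.86 over the members and 0.01 over all genes. The exception was AT4G22490, annotated as a lipid-transfer protein, with counts of 0, 2.69 and 67.7 in adaxial and 0, 1.1 and 217 in abaxial FRtip samples (lowest, median and highest). Its log2FC was 0.39 ± 0.41 (adjusted p = 0.41), with the adaxial sample higher in 19 of 32 pairs of the same time point and replicate. For 161 genes the adaxial sample was higher in all 32 such pairs. For 42 genes the lowest of the 32 adaxial samples lay above the highest of the 32 abaxial samples. Neither of these counts was made over all genes tested, so no background share stands beside them. The number of members higher adaxially by limma was 184 also without the samples at 60 min, an alternative added after seeing the data.

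**Figure D2:**
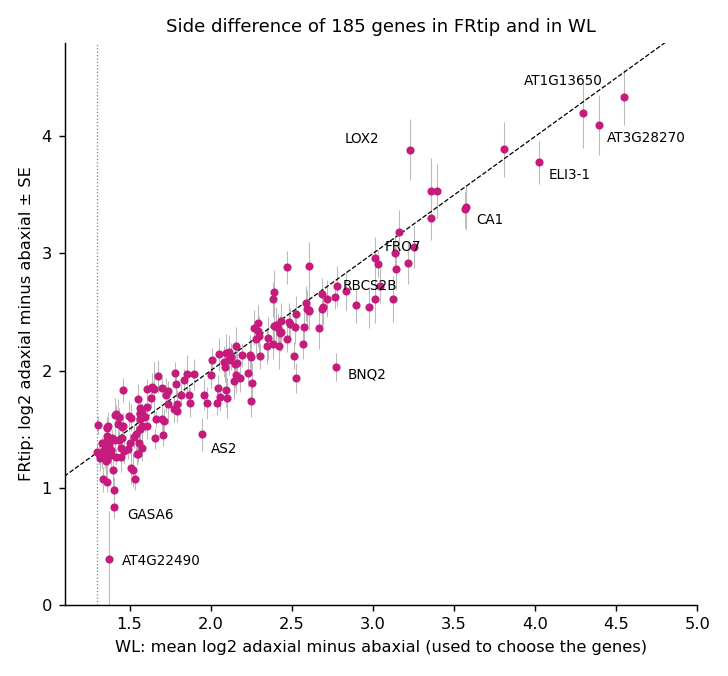
Side difference (log2 adaxial minus abaxial) of each of the 185 genes in FRtip (y, estimate ± SE, samples not used by the rule) against that in WL (x, used by the rule, dotted line at 1.3). The dashed line marks equal values, and AT4G22490 lies lowest at 0.39.

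Several of the genes with the widest side difference in WL encode proteins of no established role, and others act in carbon fixation, oxylipin synthesis or redox repair. AT1G13650 (uncharacterized) had counts of 54.8, 242 and 358 in adaxial FRtip samples, against 1.56, 7.84 and 66.7 in abaxial FRtip samples (lowest, median and highest). These ranges overlapped over all times, while the groups did not overlap at any of the 8 time points taken alone. Its log2FC in FRtip was 4.34 ± 0.24 (adjusted p = 4.9e-24). LOX2, a chloroplast lipoxygenase of jasmonate synthesis, had 28.8, 101 and 361 in adaxial and 0.966, 4.19 and 37.1 in abaxial FRtip samples, a log2FC of 3.89 ± 0.26 (adjusted p = 3.2e-20). The others of the first 12 were AT3G28270, AT3G28220 (TRAF-like), ELI3-1 (a cinnamyl alcohol dehydrogenase), MSRB6 (a methionine sulfoxide reductase), AT2G29290 (Rossmann-fold), CA1, CYP706A6 (a cytochrome P450), AT1G14250 (a nucleoside phosphatase), CA2 and GER3 (germin-like). In FRtip, every one of these 12 genes was higher on the adaxial side in all 32 pairs.

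Carbon fixation was represented by 2 carbonic anhydrases, which interconvert CO2 and bicarbonate, and by Calvin cycle genes. The lists of Calvin cycle, carbonic anhydrase, NDH, ferric reductase, wider stomatal and myrosinase genes were drawn up after the members were known. Every list count here and below includes the members of its list, which were chosen for higher adaxial counts in WL. No such count was made without them. Of all genes tested, 32.7% were higher adaxially in FRtip and 31.5% lower. CA1, which encodes a chloroplast carbonic anhydrase, had 1686, 2817 and 4078 in adaxial FRtip samples, against 83.5, 239 and 1334 in abaxial FRtip samples. Its log2FC was 3.38 ± 0.16 (adjusted p = 5.5e-27). RBCS2B had 1057, 2370 and 3515 in adaxial and 111, 354 and 1421 in abaxial FRtip samples (log2FC 2.63 ± 0.11, adjusted p = 4.5e-29). RBCS1B, its neighbour, had a smaller difference, 1.37 ± 0.07 (adjusted p = 1.3e-25). Reads of such near-identical small subunit genes can be assigned to the wrong copy, so the split between them is uncertain. FBA5, a fructose-bisphosphate aldolase, had 65.2, 142 and 223 in adaxial and 9.39, 15.7 and 54.5 in abaxial FRtip samples (log2FC 2.91 ± 0.12, adjusted p = 1.3e-29). Of 27 Calvin cycle genes and regulators, 5 were members (CP12-2, FBA5, FBP, RBCS1B and RBCS2B), and over the whole list 21 rose towards the adaxial side in FRtip and 3 fell. Only 2 of the 14 carbonic anhydrase genes tested were members, and that list was split, with 5 higher and 6 lower.

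Light-harvesting genes were also higher adaxially. Of 50 photosynthesis genes (photosystem, light-harvesting and Rubisco small subunit), 48 were higher adaxially in FRtip and 2 lower, with a median log2FC of 0.79. Members were CAB2, LHCB2.3, LHCB4.3, RBCS1B and RBCS2B. CAB2, a chlorophyll a/b-binding protein of photosystem II that shares near-identical copies, had 4478, 5940 and 8494 in adaxial and 944, 2132 and 4596 in abaxial FRtip samples (log2FC 1.45 ± 0.07, adjusted p = 3.9e-26).

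The chloroplast NDH complex gave more members than any other list examined, 10 of 30 genes. This complex carries electrons from ferredoxin back to plastoquinone in cyclic electron flow around photosystem I. The members were CRR7, NdhM, NdhN, NdhO, NdhU, PQL3, PnsB1, PnsB2, PnsL2 and PnsL3, which encode subunits of the complex or proteins related to them. PnsB2 had counts of 89.0, 135 and 193 in adaxial FRtip samples, against 10.8, 25.3 and 88.5 in abaxial FRtip samples. Its log2FC was 2.27 ± 0.11 (adjusted p = 9.6e-26). Over the whole list, 27 of 30 genes were higher adaxially in FRtip and 2 lower, with a median log2FC of 0.94. The 10 members are part of this count, so it is partly set by their choice. PnsB1 and its neighbour CNGC7, a cyclic nucleotide-gated channel and also a member, overlap by 231 bp on opposite strands. The strand setting of the counting is not given in the sources used here, so reads of that stretch cannot be assigned with certainty. A further 24 members overlap a locus on the opposite strand.

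Stomatal genes formed another group. FMA (FAMA), a bHLH factor that drives guard cell differentiation, had 72.0, 87.3 and 119 in adaxial FRtip samples, against 7.76, 24.3 and 46.8 in abaxial FRtip samples, with no overlap. Its log2FC was 1.85 ± 0.11 (adjusted p = 2.0e-22). MYB60, a factor of guard cells, had 28.7, 45.9 and 74.4 in adaxial and 2.25, 8.13 and 23 in abaxial FRtip samples (log2FC 2.37 ± 0.13, adjusted p = 2.6e-24). TMM, a receptor-like protein of stomatal spacing, and BASL, which sets the polarity of asymmetric divisions, had log2FCs of 1.84 ± 0.15 and 2.13 ± 0.17 (adjusted p = 2.1e-16 and 1.4e-16). The remaining stomatal members were STOMAGEN, a secreted peptide made by mesophyll that promotes stomata, MPK12, a guard cell kinase, and ABCG22, a transporter that limits water loss. Of the 10 guard cell markers 9 were higher adaxially in FRtip and 0 lower, and of a wider list of 25 stomatal genes 22 were higher and 2 lower. These lists hold 3 and 7 members, so both counts are partly set by the choice of genes. Of 7 epidermis markers, 0 were members, and their summed count had a median of 865 in adaxial and 1260 in abaxial FRtip samples.

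Members are 0.927% of all genes tested. Of the polarity regulators, AS2 was the only adaxial identity gene among them, with 10.5, 19.8 and 35 in adaxial and 0.733, 6.09 and 26.8 in abaxial FRtip samples (log2FC 1.46 ± 0.14, adjusted p = 6.0e-14). Of 11 adaxial identity genes, 7 were higher adaxially and 1 lower in FRtip. Of 10 abaxial identity genes, 0 were members, 1 was higher and 8 were lower. PTL, a trihelix factor known for restricting growth between floral organs, had 17.8, 27.8 and 45.1 in adaxial and 0, 4.04 and 15.9 in abaxial FRtip samples, with no overlap. BNQ2 encodes a small bHLH protein that does not bind DNA itself and promotes cell elongation through its partners. It had 50.8, 115 and 171 in adaxial and 5.85, 31.2 and 76.2 in abaxial FRtip samples (log2FC 2.03 ± 0.12, adjusted p = 1.8e-22).

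Defence chemistry was represented by the myrosinases TGG1 and TGG2, which hydrolyse glucosinolates in idioblasts and guard cells, and by the myrosinase-binding protein MBP1. TGG1 had 2872, 3692 and 4697 in adaxial and 691, 1585 and 3147 in abaxial FRtip samples, and TGG2 had 1354, 2074 and 2501 against 449, 1007 and 1802. TGG1 and TGG2 are close copies, so their counts share the uncertainty of the Rubisco genes. Of 8 genes for myrosinases and their binding proteins, 5 were higher adaxially in FRtip and 3 lower. Of the hormone families, SAUR9 was the only member among 91 auxin response genes tested, LOG1 (cytokinin activation) the only one among 29 cytokinin genes, and LOX2 the only one among 26 jasmonate genes, beside the share of 0.927% over all genes. The lists of auxin transport, gibberellin, brassinosteroid, ethylene and abscisic acid genes held 0 members, and so did those of trichome, xylem, phloem, endodermis, axillary bud and meristem, cell division, hydathode, wall loosening, wax, aquaporin, clock and TCP genes. These lists had only 3 to 50 genes tested each, so at a share of 0.927% a count of 0 tells little. Further lists gave FLS1 (flavonol synthase), ATCSLA15, POR C (protochlorophyllide oxidoreductase), MYB20, MYB47, HB31, LOV1, NAC041, WRKY23, SWEET1, CNGC7, GASA6, BGL2 and PR5. Annotation read after the members were known gave 3 NPH3-family proteins, 5 lipid-transfer proteins and 11 uncharacterized proteins. It named a basic helix-loop-helix (bHLH) domain for AT3G61950, FMA and AT4G01460. BNQ2 and PIF7 are bHLH proteins too, although their annotation did not hold these words. Such counts were not made over all genes tested.

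The leaf tip was the tissue with the highest level for most members. In FRtip, 124 of the 185 were higher in the leaf tip than in the adaxial petiole and 46 lower (limma, adjusted p below 0.05), beside 35.6% and 43.5% of all genes tested. The median log2FC was 0.82 over the members and -0.06 over all genes. Against the abaxial petiole, 160 members were higher in the leaf tip and 13 lower, beside 37.2% and 46.5% of all genes, with a median of 2.67. In WL, described without a test, the leaf tip mean was above the adaxial mean for 134 genes, at least 2 times as high for 106 and at least 4 times for 31. It lay between the sides for 39 genes and below the abaxial mean for 12.

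**Figure D3:**
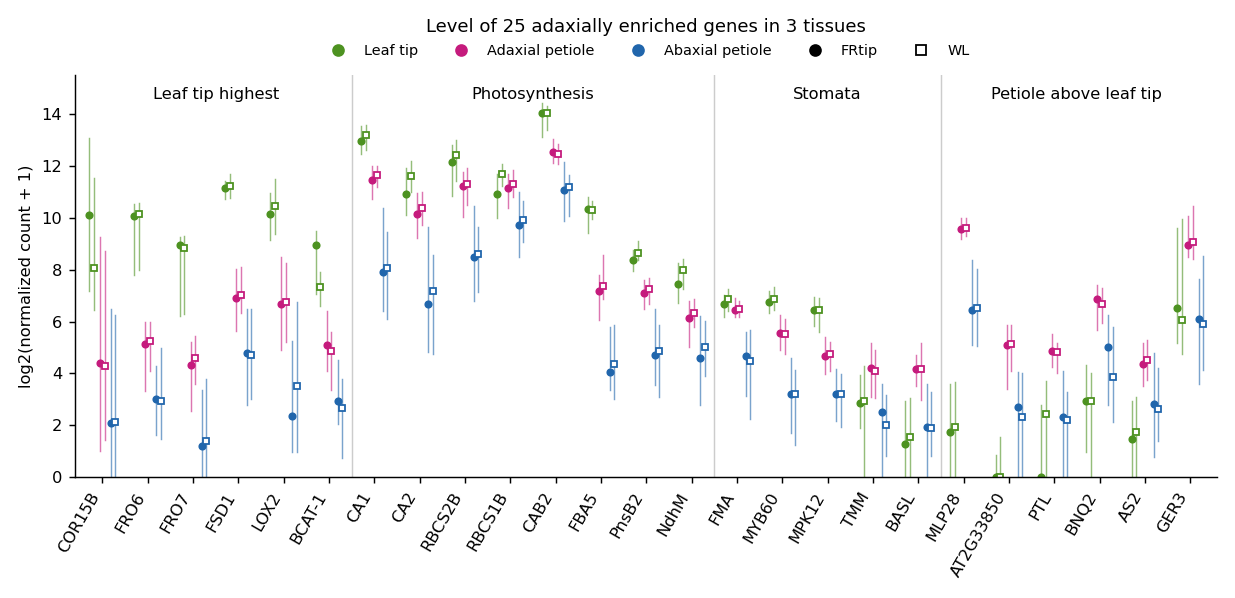
Level of 25 of the genes (log2 of the normalized count + 1) in the leaf tip, adaxial petiole and abaxial petiole, in FRtip (filled circles) and WL (open squares). Points are medians of 32 samples at 60 to 300 min and lines run from the lowest to the highest sample, and the panels from left to right hold genes highest in the leaf tip, photosynthesis genes, stomatal genes and genes above the leaf tip in the petiole.

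Among the genes highest in the leaf tip were those for ferric reductases, a superoxide dismutase and a cold-regulated protein. FRO6 and FRO7 encode ferric reductases, FRO7 that of the chloroplast envelope, and FRO8 was the third member of the family. FRO6 had 224, 1065 and 1482 in leaf tip FRtip samples, against 9.03, 34.3 and 61.6 in adaxial FRtip samples, a log2FC of 4.77 ± 0.09 (adjusted p = 4.5e-63). FRO7 had 73.4, 497 and 620 in leaf tip samples, against 4.89, 18.8 and 35.9 in adaxial samples (log2FC 4.45 ± 0.15, adjusted p = 3.0e-45). Both petiole sides were thus far below the leaf tip for this pair, and the adaxial side was above the abaxial one. FSD1, an iron superoxide dismutase, had 1709, 2246 and 2762 in leaf tip and 48.5, 118 and 261 in adaxial FRtip samples (log2FC 4.15 ± 0.15, adjusted p = 1.2e-42). COR15B, a cold-regulated chloroplast protein, had the largest log2FC, 5.32 ± 0.13 (adjusted p = 7.3e-57), and AT5G16030 one of 3.66 ± 0.08 (adjusted p = 8.1e-62).

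A smaller set was in the petiole and nearly absent from the leaf tip. MLP28, a major latex protein-like protein, had 0, 2.37 and 11 in leaf tip FRtip samples, against 574, 761 and 1027 in adaxial and 33.6, 85.3 and 327 in abaxial FRtip samples. Leaf tip reads of MLP28 did not exceed 11 in any FRtip sample, so the size of its log2FC of -7.83 ± 0.20 (adjusted p = 2.4e-54) depends on the pseudocount. AT2G33850 (E6-like) had at most 1 read in any leaf tip sample, while its adaxial FRtip counts were 9.67, 33.3 and 57.4. PTL, AT3G56220 (a transcription regulator), BASL and AS2 also had few leaf tip reads, with FRtip medians of 0, 0, 1 and 1 reads and highest samples of 4, 3, 5 and 4 reads. BNQ2 had 0.963, 6.57 and 19.3 in leaf tip and 50.8, 115 and 171 in adaxial FRtip samples (log2FC -3.77 ± 0.13, adjusted p = 3.2e-45). The stomatal genes were not uniform: MYB60 was higher in the leaf tip by 1.19 ± 0.11 (adjusted p = 2.6e-17), FMA differed by 0.13 ± 0.09 (adjusted p = 0.19), and TMM had a log2FC of -1.24 ± 0.14 (adjusted p = 9.2e-13).

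In the leaf tip itself, where the FR light fell, FRtip lowered more members than it raised. None of these samples took part in the choice of genes. At 100 to 180 min, 22 members were higher and 79 lower in FRtip than in WL, which were 11.9% and 42.7% of the members, beside 12.5% and 17% of all genes tested. At 40 to 80 min 15 were higher and 50 lower (4.31% and 6.52% of all genes), with 32 lower without replicate 2 and 29 without replicate 3, and at 300 min 19 were higher and 33 lower (5.41% and 5.8% of all genes). Of the genes lower at 300 min, 32 of 33 were among the 79 lower at 100 to 180 min. The median log2FC of the members was -0.17 at 100 to 180 min and -0.14 at 300 min, beside -0.01 over all genes at both times.

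**Figure D4:**
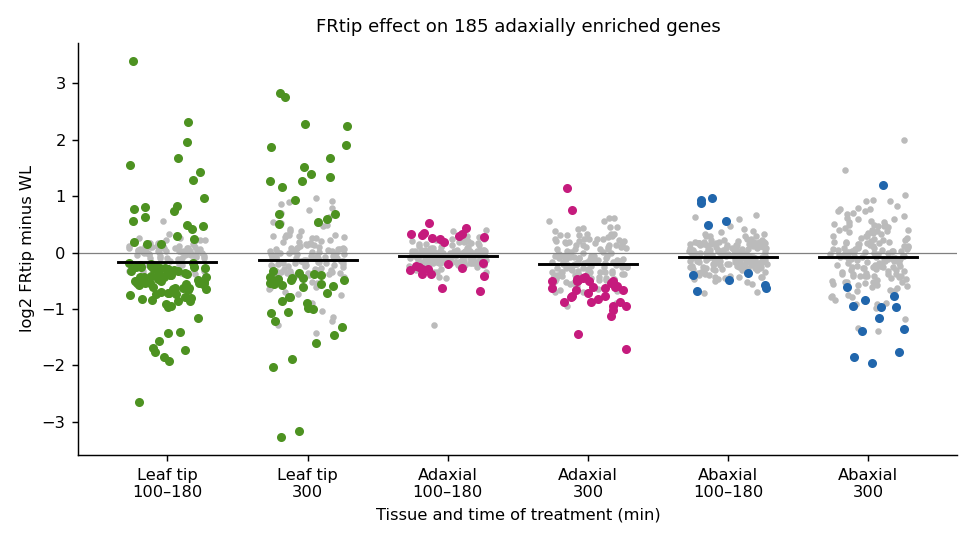
FRtip effect (log2 FRtip minus WL) on each of the 185 genes in the leaf tip, adaxial petiole and abaxial petiole at 100 to 180 min and at 300 min. Coloured points have an adjusted p below 0.05, grey points do not, and black bars mark the medians, which lie between -0.21 and -0.05.

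Photosynthetic members in the leaf tip were mostly lower in FRtip. All 10 NDH members fell at 100 to 180 min, and over the NDH list 25 of 30 genes fell and 0 rose. RBCS1B had 1021, 1840 and 2826 in FRtip, against 2414, 3035 and 4248 in WL (log2FC -0.83 ± 0.06, adjusted p = 2.9e-18). CA2, the other carbonic anhydrase, had 1114, 1773 and 2235 in FRtip, against 2306, 2999 and 3475 in WL, with no overlap between the 20 samples of each (log2FC -0.75 ± 0.04, adjusted p = 2.6e-24). CA1 fell by less, with a log2FC of -0.18 ± 0.04 (adjusted p = 0.00022). Of the 50 photosynthesis genes 21 fell and 1 rose, and CAB2 stayed at -0.03 (adjusted p = 0.74).

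Members with large changes in the leaf tip had other roles. PIF7, a main transducer of low R/FR that is named here after its values were seen, had 107, 158 and 198 in FRtip at 100 to 180 min, against 409, 512 and 595 in WL, with no overlap (log2FC -1.73 ± 0.05, adjusted p = 8.7e-37). AT1G13650 had 371, 738 and 1714 in FRtip, against 1559, 2077 and 3152 in WL (log2FC -1.43 ± 0.07, adjusted p = 3.9e-28). NIA1, a nitrate reductase, had 16.5, 28.5 and 55.3 in FRtip, against 69.7, 110 and 135 in WL (log2FC -1.85 ± 0.11, adjusted p = 8.4e-23). The treatments did not overlap for NIA1, and for AT1G13650 they did. AT1G31690, a copper amine oxidase, fell further, by 2.65 ± 0.19 on the log2 scale (adjusted p = 4.7e-19), and PTL had a median of 0 in FRtip and 4.71 in WL, with at most 9 reads in a WL sample.

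Genes that rose in the leaf tip included stress and auxin genes. RD20, a caleosin induced by drought and abscisic acid, had 135, 287 and 428 in FRtip at 100 to 180 min, against 32.5, 55.0 and 94.4 in WL (log2FC 2.31 ± 0.12, adjusted p = 8.6e-25). COR15B had 370, 1360 and 2456 in FRtip, against 104, 305 and 667 in WL (log2FC 1.95 ± 0.09, adjusted p = 3.0e-28). SAUR9, of the small auxin up RNA family, had 5.39, 10.5 and 17.5 in FRtip, while no WL leaf tip sample held more than 1 read, so its log2FC of 3.39 ± 0.21 (adjusted p = 9.5e-22) depends on the pseudocount. At 300 min, RD20 had 292, 370, 470 and 316 in FRtip, against 61.0, 30.3, 48.8 and 79.2 in WL, and BETA-OHASE 2, a carotenoid hydroxylase, had 39.3, 29.7, 35.6 and 31.1 against 7.31, 2.89, 8.14 and 7.79 (log2FC 2.28 ± 0.20, adjusted p = 3.0e-14). AT1G31690 at 300 min had 15.4, 25.1, 15.1 and 31.1 in FRtip, against 165, 221, 171 and 224 in WL. Each of these groups of 4 stood apart from its counterpart. SCPL9, a serine carboxypeptidase-like protein, had 3.41, 2.28, 1.37 and 0 in FRtip, against 24.4, 28.9, 17.6 and 19.5 in WL, and its log2FC of -3.26 ± 0.72 (adjusted p = 0.00070) depends on the pseudocount. AT3G28270 was lower in FRtip at 100 to 180 min in the leaf tip (log2FC -0.55 ± 0.16, adjusted p = 0.0053, and 0.057 without replicate 1 and 0.077 without replicate 3). At 300 min it had 42.7, 43.4, 50.7 and 61.1 in FRtip, against 7.31, 7.21, 6.78 and 22.1 in WL (log2FC 2.25 ± 0.36, adjusted p = 2.4e-06), and the difference between the times was not tested.

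In the adaxial petiole, which received no supplemental FR, changes were fewer and smaller, and the WL samples are those that the rule used. Choosing genes for high adaxial counts in these WL samples by itself favours lower values in FRtip. The part of this in the falls below was not tested. At 60 to 80 min, 0 members passed the test in either direction (limma), with 7 at an unadjusted p below 0.05, beside 0.015% of all genes higher and 0.0351% lower. At 100 to 180 min, 11 were higher and 13 lower (3.31% and 1.81% of all genes). At 300 min, 2 were higher and 30 lower (1.4% and 2.22% of all genes), with a median log2FC of -0.21 over the members and -0.02 over all genes. The 30 lower genes are 16.2% of the members, and 12 of them were also among the 33 lower in the leaf tip. These counts rest on all 4 replicates: at 300 min 10 were lower without replicate 3 or without replicate 4, and at 100 to 180 min leaving out a replicate left 1 to 6 higher and 3 to 12 lower.

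The genes lower in the adaxial petiole at 300 min included AT1G23205, NDH genes and RBCS2B. AT1G23205, an invertase or pectin methylesterase inhibitor, had 10.8, 3.78, 14.3 and 14.2 in FRtip, against 26.7, 28.7, 51.9 and 33.6 in WL (log2FC -1.71 ± 0.27, adjusted p = 1.3e-05). NdhM, an NDH subunit near the choice threshold, had 51.8, 35.3, 41.1 and 31.6 in FRtip, against 78.4, 55.5, 92.3 and 70.9 in WL (log2FC -0.88 ± 0.15, adjusted p = 6.8e-05). All 4 FRtip samples lay below all 4 WL samples for both genes. RBCS2B had 1269, 1057, 1393 and 1262 in FRtip, against 1631, 1459, 2204 and 1767 in WL (log2FC -0.49 ± 0.12, adjusted p = 0.0085), and its adjusted p was 0.080 without replicate 3 and 0.081 without replicate 4. Over the NDH list 5 of 30 genes fell and 0 rose, and over the photosynthesis list 2 of 50 fell and 0 rose. AT1G65486 and AT2G15020 also fell, by 1.45 ± 0.28 and 1.12 ± 0.30 on the log2 scale (adjusted p = 0.00044 and 0.016), with counts of at most 11.5 in any of the 8 samples, and 1 FRtip sample of AT1G65486 lay within the WL range. With edgeR their adjusted p was 0.061 and 0.27, and for AT2G15020 it was 0.34 without replicate 4, 0.054 without replicate 2 and 0.32 with a pseudocount of 5.

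SAUR9 and AT2G15020 had FRtip effects of opposite sign in the leaf tip and the adaxial petiole, and the adaxial fall of AT2G15020 was lost in 4 of 12 alternatives. SAUR9 at 300 min had 16.6, 16.4, 19.3 and 18.1 in the adaxial petiole in FRtip, against 33.2, 32.5, 27.4 and 49.7 in WL (log2FC -0.95 ± 0.20, adjusted p = 0.0014, and 0.071 without replicate 4). In the leaf tip it had 13.7, 2.28, 17.8 and 5.56 in FRtip, against 0, 0, 0 and 1.3 in WL (adjusted p = 5.0e-06). AT2G15020 in the leaf tip had 20.5, 13.7, 16.4 and 12.2 in FRtip, against 6.10, 7.21, 4.07 and 1.3 in WL (log2FC 1.69 ± 0.20, adjusted p = 1.2e-09). The difference between the tissues was not tested for these genes.

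The genes that rose in the adaxial petiole at 300 min were RD20 and GASA6, a gibberellin-regulated peptide. RD20 had 51.8, 54.2, 45.3 and 39.3 in FRtip, against 24, 18.2, 26.2 and 16.1 in WL (log2FC 1.15 ± 0.24, adjusted p = 0.00096). GASA6 had 111, 94.5, 125 and 128.4 in FRtip, against 61.8, 76.5, 88.3 and 48.9 in WL (log2FC 0.75 ± 0.23, adjusted p = 0.046), and this call was lost in 7 of 12 alternatives, with an adjusted p of 0.051 without replicate 1, 0.17 without replicate 3, 0.40 without replicate 4 and 0.069 with edgeR. In the leaf tip GASA6 was lower instead, with 213, 269, 220.4 and 322 in FRtip, against 407, 511, 583 and 413 in WL (log2FC -0.90 ± 0.16, adjusted p = 2.7e-05), and this contrast between tissues was not tested. At 100 to 180 min the largest rise past the threshold was that of LOG1, an enzyme of cytokinin activation, with 44.1, 64.5 and 89.2 in FRtip and 37.3, 43 and 59.4 in WL (log2FC 0.53 ± 0.06, adjusted p = 6.9e-10). AT4G17245 (RING/U-box) and BCAT-1 (a branched-chain aminotransferase) rose by 0.43 and 0.34 (adjusted p = 0.020 and 0.034), and both calls were lost without replicate 1, 2 or 4, with adjusted p of up to 0.25 and 0.21. SCPL9 fell by 0.67 ± 0.15, AT2G27420 (a cysteine proteinase) by 0.62 ± 0.14 and CYP706A6 by 0.41 ± 0.09 on the log2 scale (adjusted p = 0.0024, 0.0025 and 0.0021). For AT2G27420 the adjusted p was 0.051 without replicate 1, and for CYP706A6 it was 0.054 without replicate 3 and 0.052 without replicate 4.

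**Figure D5:**
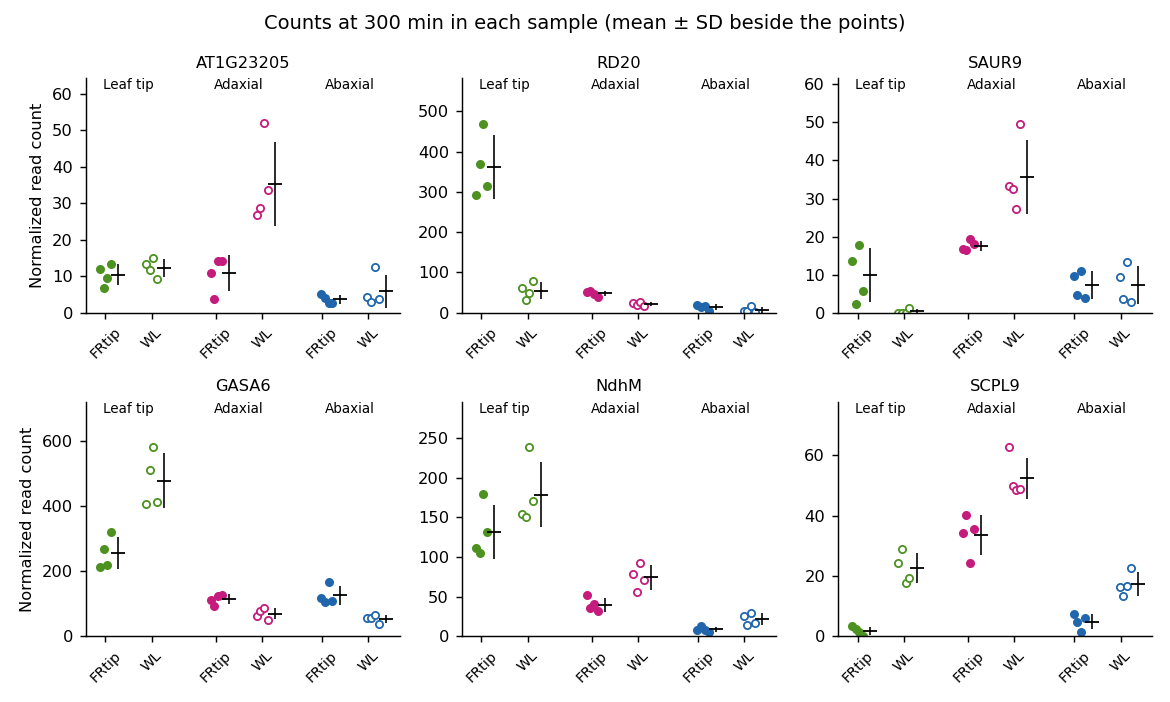
Normalized read counts of 6 members at 300 min in each replicate (points; mean ± SD beside them), in the leaf tip, adaxial petiole and abaxial petiole, FRtip (filled) left of WL (open). AT1G23205 and NdhM in the adaxial petiole are lower in all 4 FRtip samples, and RD20 and GASA6 are higher there.

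On the abaxial side the members were low, and the WL samples had served the rule here too. Choosing genes for low abaxial counts in WL by itself favours higher values in FRtip, and its part was not tested. At 60 to 80 min 0 members passed the test (limma), with 28 at an unadjusted p below 0.05 and a median log2FC of 0.26, beside 0.00501% of all genes higher and 0% lower. The mean level over the members at 60 min was 4.99, 3.77, 3.67 and 4.59 in FRtip replicates 1 to 4, against 3.45 to 4.17 in WL. At 80 min it was 3.82 to 4.56 in FRtip and 3.70 to 4.43 in WL. At 100 to 180 min 5 were higher and 6 lower (5.94% and 4.57% of all genes), and at 300 min 1 was higher and 12 lower (2.92% and 4.77% of all genes). Without replicate 3 or without replicate 4, 2 were lower at 100 to 180 min and 3 at 300 min. LOG1 had 12.5, 29.6 and 56.7 in FRtip at 100 to 180 min, against 5.38, 13.4 and 28.6 in WL (log2FC 0.96 ± 0.16, adjusted p = 1.2e-05). BNQ2 had 6.77, 33 and 63.9 in FRtip, against 6.58, 13.6 and 27.6 in WL (log2FC 0.93 ± 0.19, adjusted p = 0.00028), and GASA6 had 40.7, 85.8 and 148 against 20.1, 50.4 and 115 (log2FC 0.87 ± 0.16, adjusted p = 2.6e-05). The groups overlapped for all of these genes. BBX16, a B-box factor, had 7.99, 16.7 and 31.6 in FRtip, against 13.8, 24.2 and 42.9 in WL (log2FC -0.63 ± 0.14, adjusted p = 0.00078, and 0.054 without replicate 4). AT2G27420 and AT1G60590 (pectin lyase-like) fell by 0.68 and 0.58 on the log2 scale (adjusted p = 0.022 and 0.047), and these calls were lost in 4 and 7 of 12 alternatives, with adjusted p of up to 0.30 (without replicate 4) and 0.29 (without replicate 3).

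At 300 min in the abaxial petiole, GASA6 had 118, 106, 168 and 110 in FRtip, against 56.7, 57.1, 66.6 and 37.4 in WL (log2FC 1.197 ± 0.347, adjusted p = 0.021). NdhM had 8.14, 13.2, 8.27 and 5.93 in FRtip, against 25.1, 13.9, 29.97 and 16.2 in WL (log2FC -1.16 ± 0.24, adjusted p = 0.00054). The 4 FRtip samples lay apart from the 4 WL samples for both genes. SCPL9 and BBX17 (a B-box factor) also fell, by 1.77 and 1.96 on the log2 scale (adjusted p = 0.0086 and 0.0060). These 3 calls were lost without replicate 3 or 4, with adjusted p of up to 0.19 for GASA6, 0.12 for SCPL9 and 0.10 for BBX17. BBX17 was at 3.87 or below in every FRtip sample, so the size of its change depends on the pseudocount. Over the NDH list 10 of 30 genes fell and 0 rose on this side.

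The FRtip effect differed between the petiole sides for few members. Over 100 to 300 min, the contrast of the adaxial minus the abaxial FRtip effect was positive for 1 member and negative for 1 (limma, adjusted p below 0.05), beside 0.401% and 0.501% of all genes, and 15 members had an unadjusted p below 0.05. BNQ2 had a contrast of -0.73 ± 0.19 (adjusted p = 0.032), with FRtip effects of 0.25 adaxially and 0.93 abaxially at 100 to 180 min. BBX16 had a contrast of 0.54 ± 0.15 (adjusted p = 0.043), with FRtip effects of -0.16 adaxially and -0.63 abaxially. Both calls were lost without replicate 1, 2 or 4 (adjusted p from 0.11 to 0.72). GASA6, AT1G65486 and NdhM had the next smallest p, with adjusted p of 0.15, 0.12 and 0.15. The rule used the WL samples of this contrast as well, which by itself favours a negative value.

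Over the day, here only the 60 to 300 min sampled, the adaxial level of most members was lower at 300 min than at 60 to 80 min, with FRtip and WL averaged. Time of harvest and time of treatment ran together, so they cannot be told apart. The WL samples at these times also served the rule. Of the 185, 27 were higher and 103 lower at 300 min, beside 19.1% and 17.8% of all genes tested, and the median log2FC was -0.38 over the members and 0.02 over all genes. Because the contrast averages the treatments, it also holds the FRtip effect at 300 min. In WL alone, the mean adaxial level over the members was 5.94 at 60 min, 5.92 at 80 min and 5.66 at 300 min. In FRtip it was 5.95, 5.93 and 5.43 at the same times (n = 4 each). These levels are given without a test. AT1G07050, with a CCT motif, had 299, 369 and 565 in the 8 samples at 300 min, against 1.03, 2.38 and 6.51 in the 16 samples at 60 to 80 min (log2FC 6.79 ± 0.29, adjusted p = 1.9e-29). COR15B had 194, 403 and 617, against 1.03, 6.84 and 12.6 (log2FC 5.81 ± 0.22, adjusted p = 4.5e-32), and AT3G62550 had 81.8, 90.4 and 132, against 1.21, 5.75 and 15.4 (log2FC 3.79 ± 0.19, adjusted p = 1.1e-25). BBX16 had 10.07, 13.6 and 16.8 at 300 min, against 94.2, 110 and 133 at 60 to 80 min (log2FC -2.995 ± 0.105, adjusted p = 2.5e-34). BETA-OHASE 2 fell by 3.04 ± 0.18 and AT2G15020 by 3.01 ± 0.18 on the log2 scale (adjusted p = 2.8e-23 and 2.3e-22). None of these 6 genes overlapped between the times.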

How the data were processed

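The samples were leaf tips and adaxial and abaxial sides of the proximal petiole, in FRtip and WL. The authors deposited signal values, namely the reads on each gene over the DESeq2 size factor of the sample (0.308 to 2.68), for 33602 loci in 204 samples. The libraries were made with the strand-specific BrAD-seq method. The submitters' processing notes name FastQC, STAR, Picard, HTSeq, DESeq and TAIR10 without versions, and the strand setting of the counting is not given in the sources used here. Dividing each sample by the value of 1 read gave whole reads for 100% of its values within 0.01.

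The members and lists were chosen with earlier results of these data known. Side differences in WL and all levels in WL are descriptions. Tests used limma 3.58.1 (empirical Bayes with a trend) in R 4.3.3 on log2(normalized count + 1), for 19964 genes whose mean was 1 or more, with a mean for each group and time point, contrasts averaged over time points, two-sided p-values and Benjamini-Hochberg adjustment over all genes tested, called at 0.05. They used 199 samples, since 5 petiole samples at 40 min had no full set of replicates. A fold change is on this scale and understates the change of low genes, and reads of 3 or fewer were taken as the floor, which covers counting error only. edgeR 4.0.16 on the recovered reads was an alternative, as were pseudocounts of 0.5 and 5, no filter on low values, centring on sample medians, no trend, a replicate block and leaving out each replicate. The fits were tested on simulated data. Tables and figures used Python 3.11.15, pandas 2.3.3, NumPy 2.4.6 and matplotlib 3.10.9.

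Named genes are the 12 members with the widest WL difference, the 6 with the highest adaxial count, 3 on each side of the threshold, the members of the lists, the 3 largest rises and falls past the threshold for each FRtip effect and over the day, the 5 smallest interaction p, the 5 highest and 5 lowest in the leaf tip against the adaxial petiole, and any member not called in FRtip. A result that this rule names is not reported here. Other names were chosen after their values were seen. Symbols, positions and sequences came from the RefSeq annotation of TAIR10.1, a later release of the assembly that the authors used.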

Additional observations from a re-analysis of the deposited data

Results flagged for a closer look

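Of the results, 2 stood out because the FRtip effect differed between the petiole sides by a test of the difference itself (limma, 100 to 300 min). The contrast was positive for 1 member, BBX16, whose fall in FRtip was larger abaxially, and negative for 1 member, BNQ2, whose rise in FRtip was larger abaxially. These are 1 of 185 in each direction, beside 0.401% and 0.501% of all genes tested, and the calls were lost in 7 (BBX16) and 4 (BNQ2) of 12 alternatives, with adjusted p of up to 0.72 and 0.30. The level over the members held no sample apart from its group by Dixon's criterion in the 49 groups of 4 checked.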

How the results depend on the processing

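The side difference in FRtip, the leaf tip levels, the change over the day and the FRtip effects in the leaf tip at 100 to 180 and at 300 min kept their member counts within 1.5 times under every alternative run. The number of members itself was 334 with a difference of at least 1, 90 with at least 2, 63 with a petiole mean count of at least 50, and 183 to 200 without 1 replicate. In the leaf tip at 40 to 80 min, 29 to 37 members were lower without 1 replicate. In the adaxial petiole at 100 to 180 min, 5 members were higher with no filter on low values and 7 without a trend, and 1 to 6 were higher and 3 to 12 lower without 1 replicate. At 300 min 1 was higher with a pseudocount of 5, with no filter or without a trend, and 1 to 2 were higher and 10 to 22 lower without 1 replicate. In the abaxial petiole, leaving out 1 replicate left 2 to 9 lower at 100 to 180 min, and 0 to 2 higher and 3 to 14 lower at 300 min, where edgeR gave 2 higher. For the difference of the FRtip effect between sides, 0 members were higher with a pseudocount of 5, with no filter, without a trend or with edgeR, 0 were lower with no filter, and 0 to 1 were higher and 0 to 2 lower without 1 replicate. Of 1141 values of 94 results for single genes under these alternatives, 59 lost their call and 0 changed sign. With the replicate number as a block, 21 members were lower in the adaxial and 13 in the abaxial petiole at 100 to 180 min (13 and 6 without it) and 2 were higher in the abaxial petiole at 300 min. No label says what the numbers share, and the main fits did not pair the samples by them. Same-numbered samples of FRtip and WL correlated above 0.1 in 12 of 32 adaxial, 17 of 32 abaxial and 1 of 32 leaf tip pairs. Of the 32 FRtip samples of each tissue, 31, 21 and 26 correlated best with their own number. For adaxial with abaxial samples in FRtip, 13 of 32 same-numbered pairs correlated above 0.1, and 30 of 32 samples correlated best with their own number. For that pair of tissues the median correlation was 0.09 for the same number and -0.03 for other numbers. Same-numbered samples thus resembled each other in most cases, which the main fits and their p-values leave out. Depth limits the low genes, above all on the abaxial side, where the median member had 14 reads per WL sample.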

Other observations

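The 5 petiole samples at 40 min were used in no comparison. In FRtip, the single adaxial sample was higher than the single abaxial sample for 185 of the 185 genes, with a median log2 difference of 1.70. In WL, the mean of the 2 adaxial samples was higher than the single abaxial sample for 184 of the 185, with a median of 2.21, and the exception was AT4G22490.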
